A study of Homo sapiens with 6 samples.

Results

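The 10 genes described here were the inhibitors of DNA binding ID1, ID2, ID3 and ID4, the bone morphogenetic protein (BMP) ligands BMP2, BMP4 and BMP6, the BMP receptors BMPR1A and BMPR2, and the BMP antagonist GREM1. They were chosen by gene symbol, joined to their Ensembl identifiers, and make up 10 of the 61496 features of the count table. The set was proposed with earlier results of these data known, so its counts of calls are descriptions. All cells were U251, an established human glioma line with no added transgene or knockdown in the labels. The 3 control libraries came from untreated cells and the 3 Sev libraries from cells exposed to sevoflurane (Sev) gas, an inhaled anesthetic, for 2 h. The Sev cells of the sequencing comparison are described in the publication as exposed to 5.1% Sev, whereas the labels list concentrations from 1.7% up without assigning any to a library. Nothing in the labels says that replicates came from separate cultures, and p-values then measure only the spread between these libraries.

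BMP ligands are secreted proteins that bind a type I receptor such as BMPR1A together with a type II receptor such as BMPR2. The active receptors phosphorylate SMAD1, SMAD5 and SMAD9, which join SMAD4 and switch on target genes in the nucleus, among which the ID genes are the classic examples. ID proteins carry a helix-loop-helix domain but no DNA-binding region, and they hold E proteins such as TCF3 and TCF4 away from DNA. In the brain, BMP signaling favors the astrocyte over the oligodendrocyte and neuronal fates, and ID proteins are known for keeping progenitor and glioma cells undifferentiated.

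Sev-treated cells held more ID1, ID2, ID4, BMP4, BMP6 and BMPR1A transcript than control cells, from 1.56-fold for BMPR1A to 6.20-fold for BMP4, and ID3 rose by a smaller 1.37-fold. Of the 10 genes, 9 had enough counts to be tested. The edgeR quasi-likelihood test called 7 of the 9 higher and 0 lower in Sev at a Benjamini-Hochberg adjusted p under 0.05. Over all 27514 features tested, the same rule called 22.2% higher and 21.5% lower. No tested member was lower at an unadjusted p under 0.05 (0 of 9), and the DESeq2 Wald test also called 7 higher and 0 lower. At the threshold of the study, a log2 fold change over 1 with p under 0.05, the count was 5 higher and 0 lower, against 11.4% higher and 12% lower of all tested features. The median log2 fold change of the 9 genes was 1.38, beside -0.0056 over all features. With scaling by library size only, the median of all features moved to -0.15, that of the 9 genes was 1.25, and 6 genes were called higher because ID3 missed the limit. In bulk RNA, fewer cells of a type and less RNA per cell cannot be told apart.

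**Figure D1:**
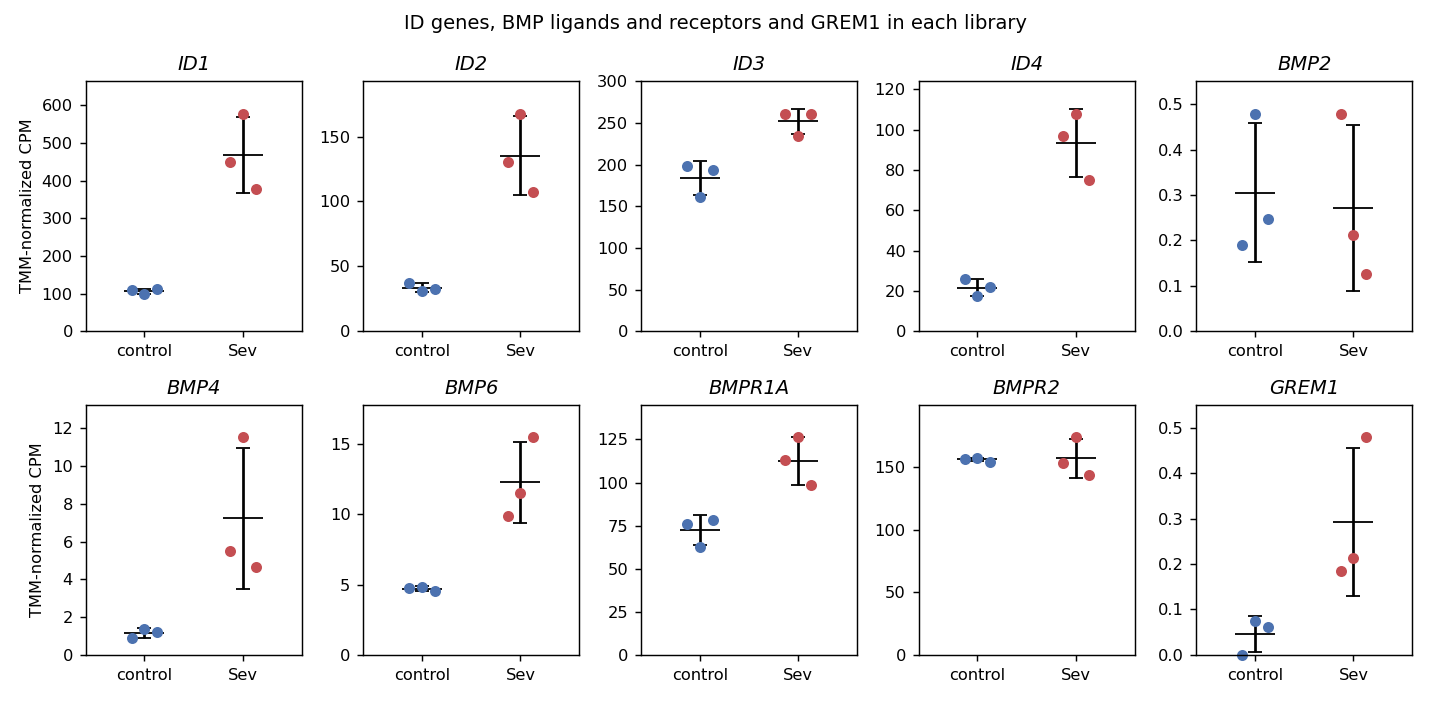
TMM-normalized CPM (counts scaled to a common library total, vertical axes from 0) of the 10 genes in each of the 3 control and 3 Sev libraries. Points are libraries, horizontal bars are group means and error bars are SD. ID1, ID2, ID3, ID4, BMP4, BMP6 and BMPR1A had every Sev library above every control library, while BMP2 and BMPR2 overlapped. GREM1, too low to be tested, also had every Sev library above every control library. Of the 27514 tested features, 15546 had no overlap between the groups.

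The libraries held 38624292 to 46318311 counts, and the TMM factors were 1.03 to 1.08 in control and 0.918 to 0.988 in Sev. The 10 glial and glioma markers summed to 7943 to 8874 CPM in control and 8987 to 9504 CPM in Sev, with 1 of 9 tested members higher and 2 lower. Summed markers of other cell types were at lower levels and higher in every Sev library, from lists too short to set their calls against the 22.2% higher and 21.5% lower of all features. The neuron list was at 155.3 to 179.2 CPM in control and 209.6 to 219.6 CPM in Sev, with 2 of 6 tested genes higher and STMN2 at 0. In that list TUBB3, which was called, had group means of 84.1 and 135 CPM, and MAP2, which was not, had 64.6 and 55.8 CPM. The microglia list was at 8.352 to 10.25 CPM in control and 18.48 to 20.33 CPM in Sev, with 3 of 5 tested genes higher and AIF1 at 0. The endothelial list was at 40.06 to 42.5 CPM in control and 53.26 to 66.52 CPM in Sev, with 3 of 5 tested genes higher. Their part in the values of the BMP and ID genes was not tested.

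The start regions of the ID genes are shown because ID1, ID2 and ID4 moved together and ID3 moved less. RefSeq promoter windows on GRCh38.p14, 250 bases before to 50 after a start site, were found for 9 of the 10 genes, 12 windows in all. Searched on both strands, the letters ATTGGCTG, an extended CCAAT box, stood in the windows of ID1, ID2, ID4 and BMP6. They were absent from those of ID3, BMP4, BMPR1A, BMPR2 and GREM1, and 3.71% of the 35116 windows of all genes held them. The shorter core ATTGG stood in the same 4 genes and in GREM1, and in 34.6% of all windows. Both were searched for after the windows had been seen, so the match is a description. The 30-base stretches with the sites lie on the plus strand at chr20:31605194-31605223, chr2:8681873-8681902, chr6:19837139-19837168 and chr6:7726010-7726039. The letters themselves begin 84, 172, 220 and 78 bases before the start sites. The RefSeq starts are not always the outermost ones. The windows of ID2 and ID3, all 3 of BMP4 and 1 of 2 of GREM1 lie wholly inside the GENCODE 29 gene, with RefSeq starts 3211 bases (ID2), 293 bases (ID3) and 3711 to 5366 bases (BMP4) downstream of its outermost start. Upstream of those outermost starts, no window of ID2, ID3 or BMP4 was searched. The capitals mark the ATTGGCTG letters.
ID1: ccatgccgcccATTGGCTGcttttgaacgt
ID2: accccgcggggATTGGCTGcgaacgcggaa
ID4: ctgcccgcctgATTGGCTGgccactccaga
BMP6: ttcgcgtccccATTGGCTGccagcctgtcg

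The upstream stretches of ID1 (chr20:31605039-31605282, plus strand) and ID4 (chr6:19837120-19837369, plus strand) are printed because both also held TATAAA, the core promoter box of that name, close to the start. In ID1 these letters match on both strands with an overlap, and in ID4 they begin 29 bases before the start. TATAAA stood in 11.5% of all windows and, among the 9 genes, also in that of BMPR1A. The stretch of BMP4 (chr14:53955051-53955300, minus strand) is 1 of 3 windows of the member with the largest fold change. It is printed because it alone of the 3 held GGCGCC, and its capitals mark GGCGCC, the GC-rich SMAD palindrome, and the SMAD binding element GTCTG. In ID1 and ID4 the capitals mark both motifs.
ID1: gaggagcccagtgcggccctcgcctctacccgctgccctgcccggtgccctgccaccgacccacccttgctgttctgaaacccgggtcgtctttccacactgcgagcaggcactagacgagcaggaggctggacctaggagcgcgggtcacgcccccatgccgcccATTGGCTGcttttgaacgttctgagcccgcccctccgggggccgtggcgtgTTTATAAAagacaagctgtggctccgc
ID4: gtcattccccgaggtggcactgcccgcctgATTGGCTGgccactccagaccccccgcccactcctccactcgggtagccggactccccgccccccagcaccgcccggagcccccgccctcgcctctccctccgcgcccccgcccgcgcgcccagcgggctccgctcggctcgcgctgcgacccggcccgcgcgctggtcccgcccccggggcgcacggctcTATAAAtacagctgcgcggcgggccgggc
BMP4: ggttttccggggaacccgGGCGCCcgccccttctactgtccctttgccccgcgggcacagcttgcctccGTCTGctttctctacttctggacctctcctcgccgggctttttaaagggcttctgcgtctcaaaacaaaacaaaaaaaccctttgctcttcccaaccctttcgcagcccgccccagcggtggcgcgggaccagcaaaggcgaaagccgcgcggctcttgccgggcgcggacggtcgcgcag

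Motifs of SMAD, cAMP and stress factors were also searched for. The GC-rich SMAD palindrome GGCGCC stood in the windows of BMP4, BMPR2 and GREM1 and in 19.2% of all windows. The SMAD binding element GTCTG stood in those of ID3, ID4, BMP4, BMPR2 and GREM1 and in 45.3% of all windows. The cAMP response half-site TGACG stood in that of ID3 and in 24.6% of all windows. No window of the 9 genes held the full site TGACGTCA or the ATF4 motif TGATGNAA, which stood in 1.85% and 3.62% of all windows. The E-box CANNTG, the letters that E proteins bind, stood in windows of ID2, ID4, BMPR1A, BMPR2 and BMP4 and in 68.7% of all windows. Of the 3 windows of BMP4, 1 held it. A window without a motif says only that these letters are not in it.

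ID1, on chr20:31605283-31606515 of GRCh38 (GENCODE 29), was the most abundant ID transcript after Sev. Its level was 109.6, 98.78 and 111.5 CPM in control and 449.9, 578.1 and 377.2 CPM in Sev. Every Sev library lay far above every control library, and Sev replicate 2 was the highest. The mean went from 106.6 ± 6.88 to 468.4 ± 102 CPM (SD, n = 3 each), a log2 fold change of 2.13 with a standard error (SE) of 0.16 and an adjusted p of 0.000112 by edgeR. Leaving out each library in turn gave log2 fold changes of 1.96 to 2.27.

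ID2, on chr2:8678845-8684453, and ID4, on chr6:19837386-19840684, changed by nearly the same fold as ID1 from lower levels. ID2 was at 37.49, 31.0 and 32.28 CPM in control and at 130.7, 167.6 and 107.5 CPM in Sev. Its log2 fold change was 2.01 (SE 0.17, edgeR adjusted p = 0.000168), with means of 33.59 ± 3.44 and 135.3 ± 30.3 CPM. ID4, which can bind and oppose the other ID proteins, was at 25.68, 17.29 and 21.74 CPM in control and at 96.87, 107.9 and 74.86 CPM in Sev. The means were 21.57 ± 4.20 and 93.19 ± 16.8 CPM, with a log2 fold change of 2.11 (SE 0.18, edgeR adjusted p = 0.000184). The order of the Sev libraries was the same in all 3 genes, replicate 2 above replicate 1 above replicate 3. Neither gene had any overlap between the groups, as was so for 15546 of the 27514 tested features.

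ID3, on chr1:23557918-23559794 on the minus strand, is the fourth family member and behaved otherwise. It was at 198.1, 161.1 and 193.7 CPM in control and at 261.2, 234.3 and 260.2 CPM in Sev, from 184.3 ± 20.2 to 251.9 ± 15.2 CPM. The groups did not overlap, but the gap was small, and Sev replicate 2, the highest library for ID1, ID2 and ID4, was the lowest of the Sev libraries here. The log2 fold change was 0.45 (SE 0.10, edgeR adjusted p = 0.00849). With library size only it was 0.31 and the call was lost (adjusted p = 0.058), and limma on the FPKM values gave adjusted p of 0.0657 to 0.12. The value was higher in Sev under every alternative run, while the call depended on the scaling.

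**Figure D2:**
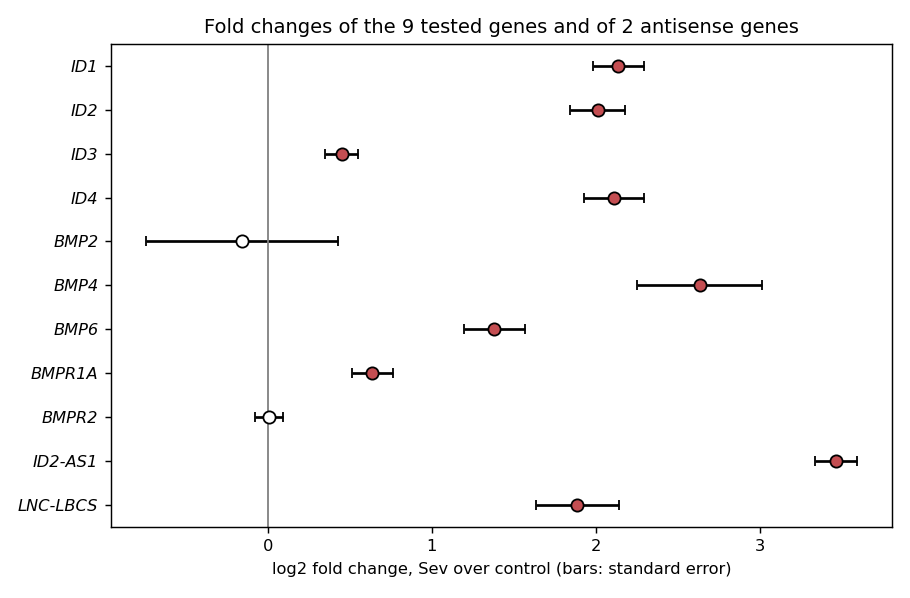
Log2 fold change of Sev over control (horizontal axis) for the 9 tested genes and the antisense genes ID2-AS1 and LNC-LBCS, with bars of 1 SE to each side, filled where the adjusted p was under 0.05. The bars of BMP2 (-0.16) and BMPR2 (0.0071) span 0, and that of BMP2, which had 5 to 19 counts per library, is the widest of the 11 shown.

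ID3 had the largest share of the ID family in control cells, and ID1 had it in Sev cells. Per length, as FPKM (counts divided by gene length and depth), ID1 to ID4 summed to 213.3, 172.5 and 203.8 in control and to 481.4, 542.9 and 436.5 in Sev. The mean went from 196.5 ± 21.3 to 486.9 ± 53.4 FPKM, a ratio of 2.48. ID3 made up 54.11, 52.25 and 53.96% of the sum in control and 28.02, 21.51 and 31.78% in Sev. ID1 made up 36.28, 38.8 and 37.64% in control and 58.49, 64.28 and 55.83% in Sev. Thus ID3 was the leading ID transcript in each control library and ID1 in each Sev library, with no overlap. The shares of ID2, 6.59 ± 0.457% and 9.58 ± 0.768%, and of ID4, 2.40 ± 0.277% and 3.78 ± 0.243%, were also higher in every Sev library than in any control library. The exact permutation test (two-sided) gave p = 0.1 for the sum and for each share, the smallest p that 3 libraries against 3 can give, so none of these 5 values can pass 0.05 in this design. Library scaling cancels in the shares, but the gene lengths behind the FPKM values do not. For ID4 the counts and FPKM imply a length of 4784 bases, against 2344 exon bases in GENCODE. For ID3 the lengths were 1844 against 1797, and for ID1 1522 against 1233. Shares with GENCODE lengths were not tested.

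**Figure D3:**
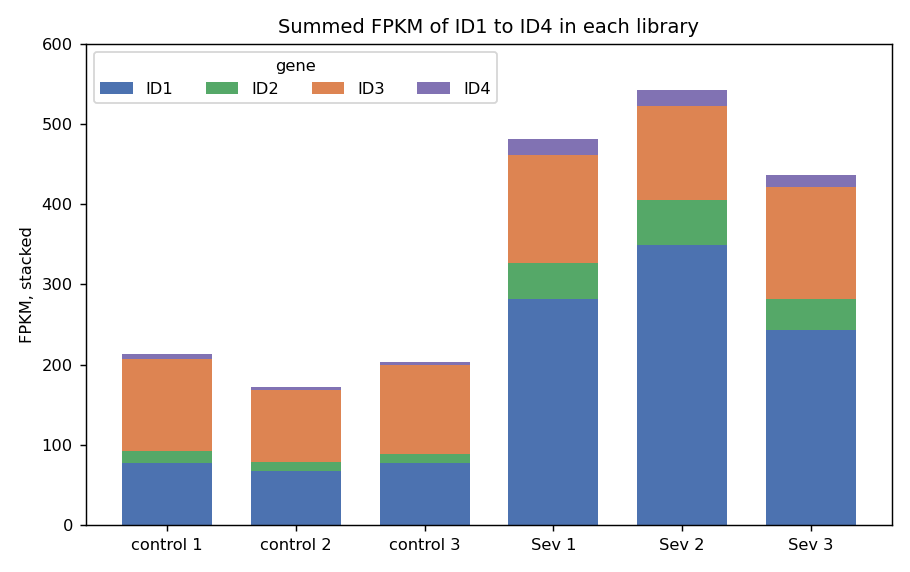
FPKM of ID1 to ID4 in each library (stacked bars, vertical axis from 0). Control sums were 172.5 to 213.3 and Sev sums 436.5 to 542.9, with ID3 the largest segment in control and ID1 the largest in Sev.

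Placed by FPKM, the 10 genes spanned a wide range of levels in both groups. In control cells the order was ID3 (105.2 ± 13.3), ID1 (73.7 ± 5.84), ID2 (12.9 ± 1.59), BMPR2 (10.6 ± 0.221), BMPR1A (5.398 ± 0.715), ID4 (4.75 ± 1.02), BMP6 (1.06 ± 0.0359), BMP4 (0.311 ± 0.0659), BMP2 (0.0700 ± 0.0326) and GREM1 (0.00178 ± 0.00156). By these values BMPR1A and ID4 overlapped, and the other neighbors did not. In Sev cells ID1 (291 ± 53.4) came before ID3 (130 ± 11.7), and ID4 (18.5 ± 2.76) stood above BMPR2 (9.63 ± 0.614) and BMPR1A (7.57 ± 0.684). BMP6 (2.51 ± 0.657) overlapped with BMP4 (1.77 ± 0.860), and BMP2 (0.0565 ± 0.0415) overlapped with GREM1 (0.0144 ± 0.00930). The ligands had lower FPKM than the receptors and the ID genes before and after Sev. The order between genes depends on the gene lengths behind the FPKM values. For ID4 the counts and FPKM imply a length of 4784 bases, against 2344 exon bases in GENCODE. For BMPR1A the lengths were 14092 against 11412, and for BMP6 4678 against 2780. The order with GENCODE lengths was not tested.

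Among the ligands, BMP4 and BMP6 rose and BMP2 gave no call. BMP4, an astrocyte-promoting ligand on chr14:53949736-53958761 (minus strand), had 37, 55 and 60 counts in control and 208, 434 and 185 counts in Sev. As CPM these were 0.8734, 1.386 and 1.234 against 5.514, 11.53 and 4.663, with Sev replicate 2 far above the other two. The log2 fold change was 2.63 (SE 0.38, edgeR adjusted p = 0.00139), and 2.13 to 2.87 with each library left out in turn. BMP6, the ligand best known for control of hepcidin and iron, on chr6:7726797-7881422, was at 4.745, 4.839 and 4.546 CPM in control. In Sev it was at 9.862, 11.48 and 15.45 CPM, here with replicate 3 the highest. Its log2 fold change was 1.38 (SE 0.18, edgeR adjusted p = 0.000991), from 4.71 ± 0.150 to 12.26 ± 2.88 CPM.

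BMP2, on chr20:6767664-6780280, is closely related to BMP4 but was almost absent from U251 cells. It had 8, 19 and 12 counts in control and 18, 8 and 5 in Sev, and the groups overlapped. The log2 fold change of -0.16 (SE 0.58, edgeR adjusted p = 0.847) turned positive without control replicate 2 (0.30) or Sev replicate 3 (0.19). A difference was not detectable at this depth.

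The receptors differed from each other. BMPR1A, the type I receptor on chr10:86756601-86932838, was at 76.11, 62.48 and 78.33 CPM in control and at 112.9, 126.2 and 98.41 CPM in Sev. The groups did not overlap, and the log2 fold change was 0.64 (SE 0.12, edgeR adjusted p = 0.00483). Reads shared with its pseudogenes are uncertain, since BMPR1AP1 and BMPR1AP2 held 0.532% and 1.51% of the counts of member and copy. BMPR2, the type II receptor on chr2:202376936-202567751, was at 156.2, 157.4 and 154.3 CPM in control and at 152.8, 173.6 and 143.9 CPM in Sev. The control libraries lay inside the range of the Sev libraries. Its log2 fold change was 0.0071 (SE 0.087, edgeR adjusted p = 0.955) and became -0.14 with scaling by library size only, also without a call.

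GREM1, or gremlin 1, which binds BMP2 and BMP4 outside the cell, on chr15:32717974-32745107, was close to silent. It had 0, 3 and 3 counts in control and 7, 8 and 19 in Sev, too few to be tested. Over the pooled libraries this was 6 against 34 counts, a ratio per depth of 5.83 with an exact 95% interval of 2.42 to 17.0. The interval covers counting error only and not the spread between libraries. GREM1-AS1, its antisense gene, had no count in any library.

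Transcripts antisense to ID2 and ID4 were also higher in Sev. ID2-AS1, on chr2:8666636-8681863 opposite to ID2, had 102, 86 and 120 counts in control and 1024, 1004 and 949 in Sev. Its log2 fold change was 3.46 (SE 0.13, edgeR adjusted p = 1.29e-05), larger than any of the 9 tested genes. LNC-LBCS, on chr6:19324988-19839080 opposite to ID4, had 168, 107 and 158 counts in control and 524, 549 and 326 in Sev. Its log2 fold change was 1.89 (SE 0.25, edgeR adjusted p = 0.00103).

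Relative to its partner, ID2-AS1 was higher and LNC-LBCS lower in every Sev library than in any control library. ID2-AS1 counts were 6.42, 6.99 and 7.65% of the ID2 counts in control and 20.8, 15.9 and 22.3% in Sev. LNC-LBCS counts were 15.4, 15.6 and 14.9% of the ID4 counts in control and 14.3, 13.5 and 10.98% in Sev. The exact permutation test gave p = 0.1 for each, the smallest possible. ID2-AS1 shares 38 exon bases with ID2, and LNC-LBCS shares no exon base with ID4. The libraries were strand-specific, but the strand setting of the counting is not given in the sources used here, so reads of a member and of its antisense gene may have been mixed over shared bases. The other overlapping genes tested, RPL13AP12 (log2 fold change -0.65, edgeR adjusted p = 0.12), H3P8 (-0.86, 0.206) and RPAP2P1 (-0.27, 0.308), gave no call.

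**Figure D4:**
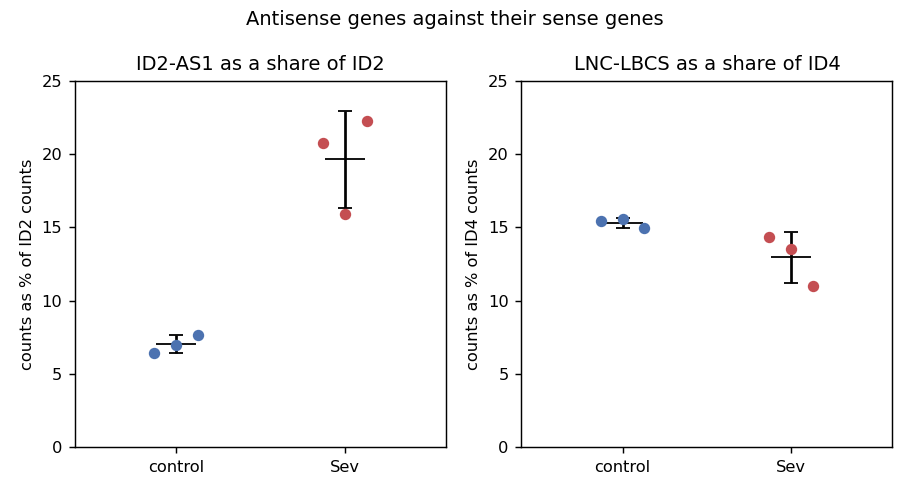
Counts of ID2-AS1 as a percent of ID2 counts, and of LNC-LBCS as a percent of ID4 counts, in each library (vertical axes from 0, points are libraries, horizontal lines are means, error bars are SD). The share of ID2-AS1 was 6.42 to 7.65% in control and 15.9 to 22.3% in Sev, and that of LNC-LBCS was 14.9 to 15.6% and 10.98 to 14.3%.

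The wider BMP pathway was read from 6 lists of 78 further genes, 7 of which stand on more than 1 list. The lists were written with earlier results of these data known, so their counts and shares of calls are descriptions. Of these 78, 62 were tested, and 25 were called higher and 10 lower, or 40.3% and 16.1%, beside 22.2% and 21.5% of all tested features, with a median log2 fold change of 0.39 (0.25 with library size only). Of the other ligands, 5 of 9 tested were higher and 2 lower (55.6% and 22.2%), with a median of 0.99. GDF6, a ligand of skeletal and eye patterning, had a log2 fold change of 2.16, with 11.3 ± 1.75 CPM in control and 50.8 ± 3.20 CPM in Sev. GDF9 (1.64), the oocyte growth factor, BMP8A (1.05) and BMP8B (0.51) rose from lower levels. GDF7, a roof plate ligand, fell to 0.220 ± 0.122 CPM in Sev against 3.21 ± 0.713 CPM in control (log2 fold change -3.86), and GDF11 was at -0.80. The call of BMP8B was lost without control replicate 3 (adjusted p = 0.0681), with library size only (0.0723), with the replicate block (0.0507) and by limma on the FPKM values (0.111 to 0.175), and that of BMP8A by limma on unfiltered log2(FPKM + 1) (0.0526). The fifth ligand called higher, GDF3 (1.53), lost its call in 4 of 6 fits without 1 library, those without control replicate 1, 2 or 3 or without Sev replicate 2 (adjusted p of 0.0677 to 0.0998), with no expression filter (0.0536), with the replicate block (0.0781) and by limma on unfiltered log2(FPKM + 1) (0.156).

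Among the other receptors and co-receptors, 1 of 7 tested was higher and 2 were lower (14.3% and 28.6%, near the shares of all features), with a median of -0.11. The activin type II receptors ACVR2A (log2 fold change -1.23) and ACVR2B (-0.85), which also bind BMPs, both fell. ACVR2A went from 32.9 ± 5.92 to 13.98 ± 0.730 CPM. RGMB, a BMP co-receptor, rose by 0.91 from 103.1 ± 3.51 to 193.7 ± 18.8 CPM. Beside them, the member BMPR2 had no call and BMPR1A was higher.

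Secreted antagonists other than GREM1 were higher in 4 of 12 tested and lower in 1 (33.3% and 8.33%, beside 22.2% and 21.5% of all features), with a median of 0.39. NOG, or noggin, rose from 4.69 ± 1.75 to 33.2 ± 5.998 CPM (2.82 on the log2 scale). FST, or follistatin, was at 1.42, CHRDL2, a chordin relative, at 1.51, and FSTL3, a follistatin relative, at 0.77. The call of FSTL3 was lost without Sev replicate 2 (adjusted p = 0.0532) and, as that of CHRDL2, by limma on unfiltered log2(FPKM + 1) (0.0630 and 0.0721). DAND5 was at -1.56, and its call was lost in each fit without 1 library except that without Sev replicate 3, with adjusted p of 0.0792 to 0.107, and also by DESeq2 (0.0615), with no expression filter (0.0589) and with the replicate block (0.0552).

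SMADs and their regulators were higher in 9 of 14 tested (64.3%, beside 22.2% of all features) and lower in 0, with a median of 0.47. At an unadjusted p under 0.05, edgeR had 2 of them lower, and DESeq2 called 1 lower. With library size only, edgeR called SMAD9 (log2 fold change -0.55, adjusted p = 0.0296) and ZNF423 (-0.92, 0.0381) lower. The inhibitory SMADs SMAD7 and SMAD6 led, SMAD7 with 6.30 ± 0.441 against 59.1 ± 15.2 CPM (log2 fold change 3.23) and SMAD6 with 22.6 ± 2.65 against 66.3 ± 12.7 CPM (1.55). SMURF1 (1.12) and SMURF2 (0.85), ubiquitin ligases that act on BMP SMADs and receptors, also rose. The calls of SMAD4 and SMAD5 were lost with library size only (adjusted p = 0.0968 and 0.0798) and by limma on the FPKM values (0.0995 to 0.175), and that of SMAD4 also without control replicate 3 (0.0544) or Sev replicate 1 (0.0730).

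BMP target genes other than the ID genes were higher in 8 of 13 tested (61.5%, beside 22.2% of all features) and lower in 0, with a median of 0.78. Of these 8, SMAD6, SMAD7, BAMBI, NOG, HES1 and HEY1 are counted on another list too, so the shares of the lists are not separate. At an unadjusted p under 0.05, edgeR had 1 of the 13 lower, SMAD9 (log2 fold change -0.41, adjusted p = 0.0599), and DESeq2 called 0 lower. With library size only, edgeR called SMAD9 lower (-0.55, adjusted p = 0.0296). Besides SMAD7, SMAD6 and NOG, which stand on this list too, HES1 rose from 114.4 ± 17.7 to 218.9 ± 40.1 CPM (0.94). Of the 8 calls, that of MSX2 was lost without control replicate 3 (adjusted p = 0.0565) and by limma on unfiltered log2(FPKM + 1) (0.0552), and that of HEY1 under the settings given for the ID partners.

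Of the partners of the ID proteins, 4 of 14 tested were higher and 5 lower, with a median of -0.064. These shares, 28.6% and 35.7%, are not far from the 22.2% and 21.5% of all features for so few genes. ETS1 (1.91) and ETS2 (1.89), ETS factors that ID proteins can bind, rose with HES1 and HEY1 (0.55). ETS2 was at 55.54, 116.2 and 39.68 CPM in Sev, with replicate 2 the highest. OLIG2, a factor of oligodendrocyte and glioma progenitors, fell from 2.38 ± 0.128 to 0.597 ± 0.153 CPM (-1.99). The E proteins TCF12 (-0.40) and TCF4 (-0.35) and the retinoblastoma gene RB1 (-0.47) were lower by small amounts, while the E protein TCF3 (-0.031) had no call. The call of TCF4 was lost without Sev replicate 1 (adjusted p = 0.0509), and that of HEY1 without control replicate 3 (0.0703) or Sev replicate 1 (0.0674) and by limma on the FPKM values (0.0509 to 0.0859). OLIG1 (-1.75), the fifth partner called lower, lost its call in 4 of 6 fits without 1 library, those without control replicate 2 or 3 or Sev replicate 1 or 3 (0.0512 to 0.0828).

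**Figure D5:**
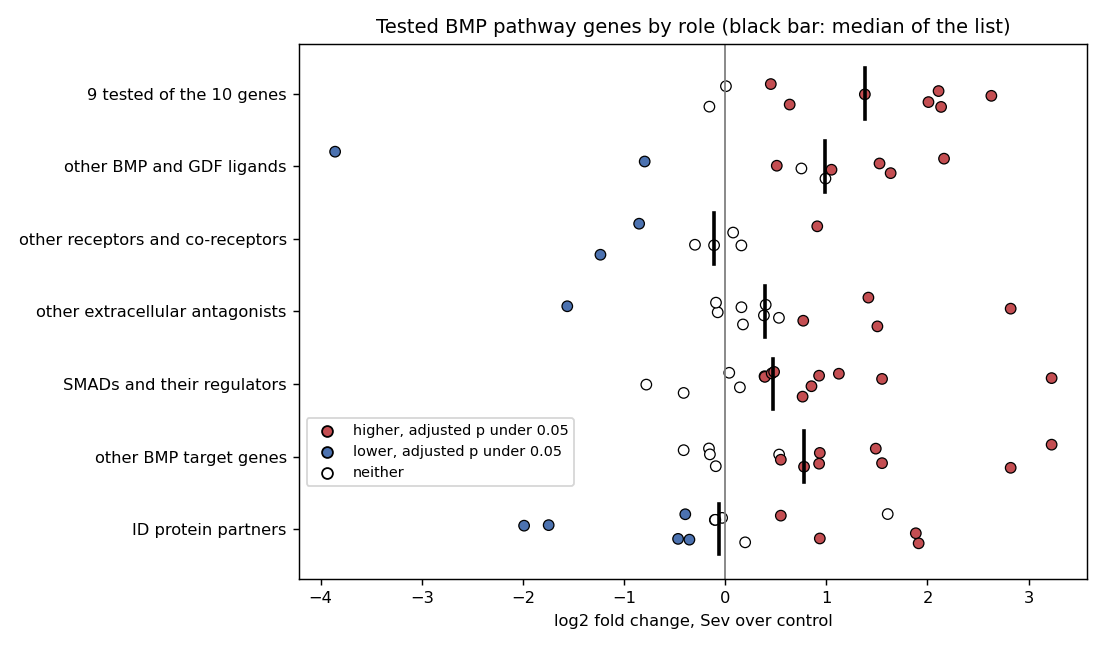
Log2 fold change of Sev over control (horizontal axis) for the tested genes of each role, 1 point a gene, filled where the adjusted p was under 0.05, with the median as a black bar. Medians lay at 1.38 for the 9 genes and between -0.11 and 0.99 for the 6 other lists.

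Genes most like each ID gene were named by the Pearson correlation of log2 CPM over the 6 libraries, among 10108 genes. As the groups stand apart, much of each correlation is the difference between 2 clusters of 3 libraries, so it is a description with no test. Nearest to ID1 were ZNF365 (r = 0.9999), LURAP1L (0.999) and SMAD7 (0.999), and 121 genes had r over 0.99. Nearest to ID2 were RIPK2 (0.9988), BACH1 (0.9987) and ZXDB (0.9985), and nearest to ID4 were TNXB (0.998), BTBD18 (0.9972) and ZDHHC11 (0.997). Nearest to ID3 were WNT5A (0.9978), POLR2J4 (0.9941) and PHB2 (0.9922), and only these 3 genes had r over 0.99. ID1, ID2 and ID4 were alike over the 6 libraries, with r of 0.9975 for ID1 and ID2, 0.992 for ID1 and ID4 and 0.9945 for ID2 and ID4. ID3 had r of 0.8787 with ID1, 0.8758 with ID2 and 0.9176 with ID4.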

How the data were processed

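RNA of U251 cells was sequenced by the authors after ribosomal RNA depletion with strand-specific adapters, in 3 control and 3 Sev libraries grouped by their labels. The authors deposited raw counts per gene, with no normalization, and FPKM values of the same features. The submitters' processing notes name bcl2fastq 2.19, featureCounts and hg18, with no role given, and the aligner and the strand setting are not given in the sources used here. Positions were therefore taken from GENCODE 29 on GRCh38 by Ensembl identifier, and symbols from a name table (60295 of 61496 features). Depth was 38624292 to 46318311 counts per library. Precision was limited by 3 replicates a group, and by counting for BMP2 and GREM1.

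The members and gene lists were chosen with earlier results of these data known. Counts were filtered with filterByExpr (minimum count 10), scaled by TMM, and fitted with glmQLFit and glmQLFTest of edgeR 4.0.16 in R 4.3.3, with 2 groups and no covariate. P-values were adjusted by Benjamini-Hochberg over all 27514 tested features, with a limit of 0.05. Sums, shares and ratios were compared by an exact two-sided permutation test in scipy 1.17.1. Named were all members, up to 4 called genes of each list and direction by smallest p, tested genes that overlap a member, and for each ID gene the 3 genes with the highest correlation among those with a mean of at least 10 CPM. TCF3, SMAD4, SMAD5, SMAD9, BAMBI, ZNF423, GDF3, OLIG1, MSX2 and GREM1-AS1 were named outside this rule, after their values were seen. So were the markers TUBB3, MAP2, STMN2 and AIF1, and BMPR1A's copies.

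Alternatives were DESeq2 1.42.0 size factors and Wald test, library size only, leave-one-out fits, a block for the replicate number, no filter, and a filter of 10 counts in all libraries. The FPKM values were tested with limma 3.58.1 as log2 values after a pseudocount of 1 or 0.1 had been added, keeping features of 0.5 FPKM or more in 3 libraries, and with the former also unfiltered. The main edgeR fit, the DESeq2 Wald test and limma with a pseudocount of 1, on depth-scaled counts in place of FPKM, were tested on simulated data. The simulation changed 200 genes, far fewer than the 12015 features called here, so it does not test the scaling. The other alternatives were not simulated. Replicates were checked for duplicates, and each pair within a group differed beyond counting noise in 49 to 66.6% of 15608 genes. Promoter windows were RefSeq's, matched by symbol for 9 members, and no entry for BMP2 was found in the table used.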

Additional observations from a re-analysis of the deposited data

How the results depend on the processing

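The direction and the call of ID1, ID2, ID4, BMP4, BMP6 and BMPR1A held under every alternative. Of 132 fold changes of the 9 tested genes under alternatives, 118 kept direction and side of the threshold, 4 lost the call (all ID3) and 10 turned sign (BMP2 and BMPR2, neither ever called). BMP2 (-0.16) ranged from -0.83 to 0.30 with each library left out, with 0.19 without Sev replicate 3. BMPR2 (0.0071) was at -0.14 with library size only, -0.0055 with no expression filter, -0.13 by limma on log2(FPKM + 1) with or without the filter and -0.14 on log2(FPKM + 0.1), and ranged from -0.069 to 0.067 with each library left out, with -0.0010 without control replicate 1 and -0.0062 without control replicate 3. The number of other pathway genes higher in Sev, 25, was 16 by limma on log2(FPKM + 1) without filter and 20 to 25 with each library left out, and that of lower genes, 10, was 7 to 10. With library size only, 22 were higher and 12 lower. The causes were not tested. Over all features, 6095 were higher and 5920 lower (50.7% of calls higher), against 3676 and 6709 by limma on log2(FPKM + 1) (35.4%), and 38.3% of calls were higher with library size only. The replicate number as a block left 7 members higher and 0 lower, with 23 other pathway genes higher and 9 lower. The deviations of same-numbered libraries from their group means had correlations of -0.123, 0.00595 and 0.113 over 10850 genes. Those of the other pairs ranged from -0.263 to 0.235. With means of 3 libraries, this check cannot show whether replicates were handled as pairs. Depth limits BMP2 and GREM1.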
